A study of Mus musculus with 27 samples.

Results

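The 10 genes described here are Pf4, Ppbp, Gp1ba, Gp1bb, Gp5, Gp9, Treml1, Nfe2, Rab27b and Clec1b, which mark megakaryocytes and the platelets they release. They were taken by name from the 20141 genes that a RefSeq accession on the array could be matched to, and all 10 had at least 1 probe. Every member except Ppbp stood above background on every array of the hematopoietic progenitors, and Nfe2 rose between the first and the second hemogenic endothelium population, with and without the AP-1 inhibitor. Gp9 and Treml1 passed the same tests, but their signal in the first population lay near background and their calls depended on the filter on dim probes and, without the inhibitor, on background correction. The calls of all 3 genes were lost when certain single arrays were left out and in fits on the groups compared alone. That of Nfe2 with the inhibitor was also lost with median scaling, and that of Treml1 without it with replicate as a block. No member passed the test between cells given the inhibitor and cells without it.

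Megakaryocytes are the large marrow cells that shed platelets, and in the embryo they arise early from hemogenic endothelium together with red cells and macrophages. Their platelet product carries chemokines in alpha granules, the glycoprotein Ib-IX-V complex that binds von Willebrand factor, activating receptors such as CLEC-2, and dense granules. The transcription factor NF-E2 drives the last steps of platelet formation, and GATA1, RUNX1, FLI1 and GFI1B act before it.

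The study asked what AP-1, the family of FOS and JUN dimers, does while hemangioblast cells become endothelium, smooth muscle and blood. Mouse embryonic stem cells of the A2lox line carried a Flag-tagged dominant negative FOS (dnFOS) under a doxycycline-driven promoter in the Hprt locus. FLK1+ cells were purified from embryoid bodies after 3.75 days and placed in blast culture, and DOX groups received doxycycline at 1 µg/ml. Total RNA of 27 samples was hybridised to 1-colour mouse expression arrays, with 2 arrays in each of 13 groups except untreated SM, which had 3.

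The groups were FLK1+ cells without treatment, FLK1+ cells cultured for 5 h without or with DOX for those 5 h (FLK1+ 5h), complete blast cultures of day 1 without or with DOX for 1 day (d1 BC), and 4 sorted populations. These 4, each taken without or with DOX for 2 days, were SM (smooth muscle) and 3 sorts on KIT, TIE2 and CD41. HE1 was KIT+ and TIE2+ without CD41, HE2 carried all of these markers, and HP (hematopoietic progenitors) carried KIT and CD41 but no TIE2. Untreated controls carried the same silent cassette, and no array held cells without the cassette given DOX, so dnFOS and doxycycline itself cannot be told apart. One line was used, and no source says which arrays came from separate cultures, so the p-values measure the spread between these arrays, which may be technical.

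A level here is the log2 signal of a probe minus the log2 of the 75th percentile of its array, so that 0 is the signal of the 75th percentile spot. That percentile signal ran from 78.8 in HE2 replicate 1 to 732 in FLK1+ 5h replicate 2, and 48.0% to 89.7% of spots were well above background, the highest share being in untreated SM replicate 2. Both arrays of the DOX and of the untreated group in HE1, HE2 and HP were split over the same 2 slides, replicate 1 on slide 1 and replicate 2 on slide 3. Hprt, whose locus holds the cassette, had a higher level on every DOX array than on every untreated array of the same population, for example 4.74 and 5.62 against 1.97 and 2.69 in HE2. The probes of the sorting markers went against the labels on some arrays. Itga2b, which encodes the CD41 of the gate and is itself a megakaryocyte integrin, stood at -0.16 in HE2 DOX replicate 2 and at 0.30 in HP DOX replicate 1, where the other array of each group stood at 3.63 and 2.45. HE1 DOX replicate 1, from a CD41- gate, stood at 1.78, and Tek, which encodes TIE2, stood at -0.96 in HE2 DOX replicate 2 against 2.51 in replicate 1 and at 0.02 in HE1 DOX replicate 2 against 2.59, both TIE2+ gates, while untreated HP replicate 1, from a TIE2- gate, stood at 0.41 against -1.62. Counts of calls and several DOX differences are given below also without these arrays.

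The promoters of 8 members were listed in the RefSeq table (GRCm38.p6), each a window of 250 bases before to 50 bases after the start site. Those of 6 members are shown, because Pf4 and Ppbp are chemokine genes side by side on one chromosome and were well above background on 16 and 1 of 27 arrays, Gp1ba, Gp9 and Gp5 encode partners of one receptor, and Treml1 was among the genes that changed. Capitals mark 4 kinds of words, each searched on both strands. GATA words, bound by factors such as GATA1, were AGATAA and, as the other form allowed, TGATAA. ETS words, bound by factors such as FLI1, were CCGGAA and, as the other form allowed, AGGAAG. The RUNX word, bound by factors such as RUNX1, was TGTGGT. The AP-1 word was TGANTCA with any base at N, a looser form of the site of FOS and JUN dimers.
Pf4, chr5:90772185-90772484, plus strand: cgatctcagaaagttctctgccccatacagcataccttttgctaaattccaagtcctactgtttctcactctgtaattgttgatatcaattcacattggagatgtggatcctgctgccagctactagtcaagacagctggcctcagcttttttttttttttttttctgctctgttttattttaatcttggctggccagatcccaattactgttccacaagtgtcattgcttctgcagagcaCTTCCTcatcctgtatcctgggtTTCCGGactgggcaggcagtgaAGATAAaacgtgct
Ppbp, chr5:90768268-90768567, plus strand: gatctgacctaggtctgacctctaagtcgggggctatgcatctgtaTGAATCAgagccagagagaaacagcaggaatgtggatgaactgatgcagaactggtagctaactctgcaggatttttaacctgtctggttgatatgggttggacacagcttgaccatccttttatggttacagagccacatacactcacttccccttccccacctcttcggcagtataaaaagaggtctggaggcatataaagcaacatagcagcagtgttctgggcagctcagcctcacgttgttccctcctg
Gp1ba, chr11:70638872-70639171, plus strand: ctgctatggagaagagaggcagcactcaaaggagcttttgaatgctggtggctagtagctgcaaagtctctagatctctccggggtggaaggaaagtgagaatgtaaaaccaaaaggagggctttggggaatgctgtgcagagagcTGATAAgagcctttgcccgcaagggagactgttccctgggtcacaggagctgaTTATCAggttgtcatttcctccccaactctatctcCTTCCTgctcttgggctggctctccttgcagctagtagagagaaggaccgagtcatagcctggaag
Gp9, chr6:87777820-87778119, plus strand: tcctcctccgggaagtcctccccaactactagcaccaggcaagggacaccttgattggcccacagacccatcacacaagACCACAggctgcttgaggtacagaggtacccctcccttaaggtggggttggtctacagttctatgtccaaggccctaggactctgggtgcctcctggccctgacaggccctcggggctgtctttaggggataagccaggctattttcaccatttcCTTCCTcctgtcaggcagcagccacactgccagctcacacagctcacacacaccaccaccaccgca
Gp5, chr16:30310732-30311031, minus strand: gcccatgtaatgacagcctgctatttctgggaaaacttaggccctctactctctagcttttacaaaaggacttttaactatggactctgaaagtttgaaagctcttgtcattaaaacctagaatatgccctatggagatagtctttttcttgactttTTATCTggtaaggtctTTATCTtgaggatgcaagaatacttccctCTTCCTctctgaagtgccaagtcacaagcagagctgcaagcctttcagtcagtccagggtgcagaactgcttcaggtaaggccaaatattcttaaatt
Treml1, chr17:48359666-48359965, plus strand: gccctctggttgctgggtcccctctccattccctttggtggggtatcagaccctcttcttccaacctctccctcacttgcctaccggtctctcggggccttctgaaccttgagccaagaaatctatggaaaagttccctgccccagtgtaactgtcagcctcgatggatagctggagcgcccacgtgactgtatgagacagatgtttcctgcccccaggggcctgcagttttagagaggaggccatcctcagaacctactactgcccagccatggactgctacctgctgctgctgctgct

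The GATA words were present in the promoters of Pf4, Gp1ba, Gp5 and Clec1b, 4 of 8 members, where 18.6% of 32851 promoters of this length held one. The ETS words were present in 5 of 8 (45.2% of all promoters), and lay at the same distance, 16 bases before the start site, in Gp1ba and Gp9. The RUNX word was found in Gp9 only (16.8%), and the AP-1 word in Ppbp and Gp1bb (7.81%). In both it read TGAATCA, with A at the open base, so neither is taken as a site of FOS and JUN. The Treml1 window held none of these words. A word is a description of the letters, and a window without one says nothing about the factor.

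In the plot of levels by array, every member except Ppbp had lower group means in FLK1+ cells and untreated day 1 cultures than in untreated HE2 and HP. The FLK1+ arrays lay on slide 4 and the untreated day 1 arrays on slides 2 and 4. Those of HE2 and HP lay on slides 1 and 3, so slide and population cannot be told apart here. These are bulk samples, in which fewer cells of a type and less RNA per cell cannot be told apart.

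**Figure D1:**
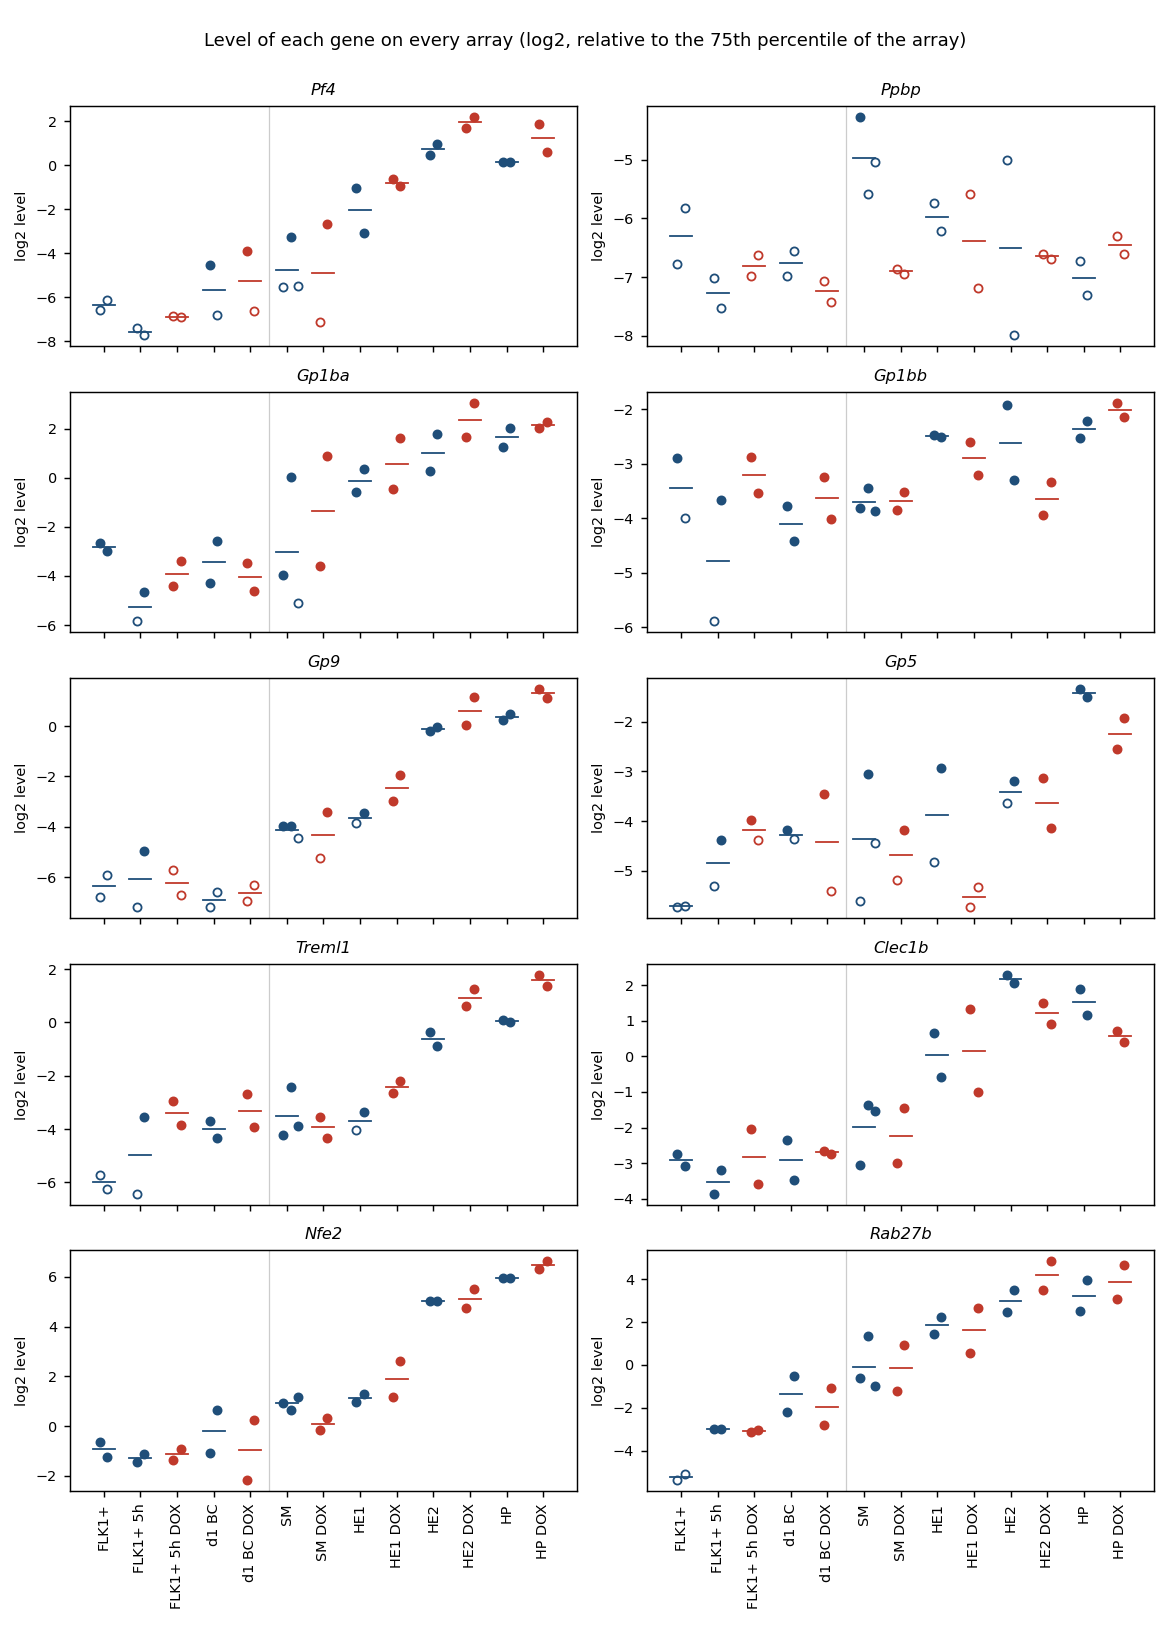
Level of each of the 10 genes on every array (log2 relative to the 75th percentile of the array, vertical axis) in the 13 groups (horizontal axis). Blue points are untreated arrays, red points DOX arrays, open points arrays where the probe was not well above background, and short lines group means. All HE2 and HP points of Pf4, Gp9, Treml1 and Nfe2 lie above their HE1 points, and Ppbp shows open points on 26 of 27 arrays.

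Pf4 (platelet factor 4, a chemokine stored in alpha granules) was not well above background on either FLK1+ array or on any FLK1+ 5h array. In untreated sorted cells its level was -5.51, -3.26 and -5.48 in SM, -1.01 and -3.08 in HE1, 0.48 and 0.96 in HE2, and 0.13 and 0.14 in HP. With DOX it was -0.63 and -0.96 in HE1, 1.68 and 2.21 in HE2, and 1.86 and 0.62 in HP. All arrays of HE2 and HP stood above all arrays of HE1 and SM. HE2 DOX headed the order of the groups, and its arrays overlapped those of HP DOX. Ppbp, which encodes the precursor of other platelet chemokines and lies next to Pf4, was well above background on 1 of 27 arrays, untreated SM replicate 1 at -4.27. Its group means ran from -7.27 to -4.97 with no climb along the path, and it was tested in none of the comparisons. The windows of the neighbours shown above start 3917 bases apart.

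Of the von Willebrand factor receptor, Gp1ba encodes the ligand-binding chain, Gp1bb its disulphide-linked partner, and Gp9 and Gp5 the further chains. Gp9 was -3.85 and -3.44 in untreated HE1, -0.21 and -0.02 in HE2, and 0.25 and 0.47 in HP, and was not well above background on the first HE1 array. With DOX the same populations stood at -2.96 and -1.96, 0.05 and 1.16, and 1.47 and 1.11. None of the HE1 arrays reached any HE2 or HP array.

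Gp1ba was -0.58 and 0.35 in HE1, 0.26 and 1.78 in HE2, and 1.25 and 2.04 in HP without DOX, so HE1 and HE2 overlapped. Its replicate 2 arrays, all on slide 3 in the sorted populations, were the higher of each pair, and untreated SM replicate 2 at 0.04 stood far above the other SM arrays at -3.96 and -5.10. Gp5 reached its highest levels in HP, with -4.82 and -2.94 in HE1, -3.63 and -3.20 in HE2 and -1.34 and -1.51 in HP. With DOX it was -5.74 and -5.32 in HE1, where neither array was well above background, -3.13 and -4.15 in HE2, and -2.55 and -1.93 in HP. HP and HP DOX headed the Gp5 order, and the next group, HE2, did not overlap them.

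Gp1bb had group means between -4.77 and -2.01 with no order along the path, and HP DOX alone did not overlap the next group in the order. Its other probes were well above background on 4 and 17 arrays and moved otherwise, with a difference from SM to HP of -1.66 and -0.65 against 1.34 for the probe used. In RefSeq the gene overlaps Septin5, so its signal is uncertain.

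Treml1 encodes TLT-1, a receptor of platelet alpha granules. Its level was -4.03 and -3.34 in untreated HE1, -0.35 and -0.87 in HE2, and 0.10 and 0.02 in HP. With DOX it was -2.64 and -2.18 in HE1, 0.61 and 1.24 in HE2, and 1.78 and 1.38 in HP. These 6 groups did not overlap one another, and HP DOX, HE2 DOX, HP and HE2 headed the order in that sequence.

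Clec1b encodes CLEC-2, the receptor for podoplanin on platelets. It was well above background on all 27 arrays, at 0.65 and -0.59 in untreated HE1, 2.28 and 2.06 in HE2, and 1.90 and 1.16 in HP. With DOX the levels were 1.32 and -1.01, 1.51 and 0.91, and 0.71 and 0.41. HE2 headed the order and did not overlap HP. The other 2 probes of Clec1b put HP above HE2 by 0.77 and 0.29 where the probe used put it below by -0.64, so the order of HE2 and HP rests on the probe.

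Nfe2, the large subunit of NF-E2, was also measured on all 27 arrays. It was 0.97 and 1.28 in untreated HE1, 5.03 and 5.05 in HE2, and 5.95 and 5.94 in HP, and with DOX it was 1.16 and 2.60, 4.73 and 5.53, and 6.33 and 6.63. HP DOX, HP and the HE2 groups formed separate levels, and the HE2 groups overlapped each other. In SM it was 0.92, 0.64 and 1.19, which overlapped untreated HE1. Rab27b, a small GTPase of granule transport, stood at -5.34 and -5.07 in FLK1+ (not well above background), -2.96 and -2.97 in FLK1+ 5h, 1.44 and 2.25 in HE1, 2.48 and 3.51 in HE2 and 2.49 and 3.94 in HP. With DOX it was 0.56 and 2.66, 3.50 and 4.83, and 3.05 and 4.63, so neighbouring groups overlapped from HE2 DOX down to HE2.

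Untreated SM and HP set smooth muscle against blood progenitors. In limma with Benjamini-Hochberg adjustment over 25270 genes, 8 of the 9 members tested rose by at least 2-fold at an adjusted p under 0.05, where 3.17% of all genes rose and 6.2% fell. A gene entered a test where all arrays of at least 1 of its groups were well above background, and Pf4, Gp1ba, Gp5 and Gp9 entered here through HP alone. Of the 5 members above background in both groups, 4 were called. Among these 5, with the probes used, the largest difference was that of Nfe2, at 5.03 ± 0.63 (SE). Of all 8 called, the smallest estimate was that of Gp5, at 2.94 ± 0.71 (adjusted p = 0.0107), from a signal above background on 1 SM array. Gp1bb, at 1.34 ± 0.59, did not pass (adjusted p = 0.224). Of the others, Pf4 differed by 4.89 ± 1.08, Gp1ba by 4.65 ± 1.27, Gp9 by 4.48 ± 0.64, Treml1 by 3.57 ± 0.70, Clec1b by 3.51 ± 0.72 and Rab27b by 3.29 ± 0.87. The other probes of Clec1b differed by 6.31 and 6.15, above Nfe2. Leaving out SM replicate 1 left 5 calls, HP replicate 2 left 4 and HP replicate 1 left 3, while leaving out SM replicate 2, the array with the most spots above background, left 8. Fitted on these groups alone, 3 members were called. The SM arrays were unlike in other markers, with summed signals (in multiples of the 75th percentile signal) of 21.0, 229 and 19.9 for 15 endothelial markers and 513, 84.0 and 380 for 17 erythroid markers in replicates 1 to 3, and the part of these in the differences was not tested.

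From HE1 to HE2, which the gate sets apart by CD41, Gp9 rose by 3.53 ± 0.70 (11.6-fold, adjusted p = 0.00938), Treml1 by 3.07 ± 0.77 (8.42-fold, adjusted p = 0.0394) and Nfe2 by 3.91 ± 0.69 (15.1-fold, adjusted p = 0.00429). These were 3 of 8 members tested, where 0.529% of 23457 genes rose and 1.78% fell. Gp9 and Treml1 entered the test through HE2 alone, neither being well above background in HE1 replicate 1, so the count of 3 says little about the members together. Of the 6 members above background in both groups, 1 was called, Nfe2. With normexp background correction Nfe2 still passed, and the differences of Gp9 and Treml1 shrank to 1.44 (adjusted p = 0.163) and 1.10 (adjusted p = 0.493) in limma. The differences lay on the same side on both slides, with 3.64 and 3.42 for Gp9, 3.68 and 2.47 for Treml1 and 4.06 and 3.77 for Nfe2. Pf4 differed by 2.76 ± 1.18 (adjusted p = 0.402) and Clec1b by 2.14 ± 0.78 (adjusted p = 0.246). Over the alternatives the difference of Pf4 ran from 1.62 to 3.8, and its adjusted p in limma fell as low as 0.00698. With slide as a fixed block Clec1b also passed (adjusted p = 0.0288). With replicate as a block Treml1 did not pass. Without HE1 replicate 1 no call remained, without either HE2 array 1 remained, and Treml1 was lost when any of the 4 arrays was left out.

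With DOX, Gp9 rose from HE1 to HE2 by 3.07 ± 0.70 (adjusted p = 0.0339), Treml1 by 3.33 ± 0.77 (adjusted p = 0.0346) and Nfe2 by 3.25 ± 0.69 (adjusted p = 0.0206). Over the alternatives these differences ran from 1.9 to 3.63 for Gp9, 2.34 to 3.74 for Treml1 and 2.53 to 3.97 for Nfe2. They were 3 of 9 tested, where 0.39% of 23830 genes rose and 1.05% fell. Rab27b differed by 2.56 ± 0.96 (adjusted p = 0.324), Pf4 by 2.74 ± 1.18 (adjusted p = 0.48) and Gp5 by at least 2.07-fold from a background signal in HE1 DOX (adjusted p = 0.44). Over the alternatives the adjusted p in limma fell as low as 0.0256 for Pf4 and 0.0379 for Gp5. With slide as a fixed block Rab27b also passed (adjusted p = 0.00828). With genes above background in both groups only, Nfe2 was called and Gp9 and Treml1 were not (adjusted p = 0.0506 and 0.0512). Without HE2 DOX replicate 2, the array at which Itga2b and Tek were low, no call remained, nor without replicate 1 of HE1 DOX or of HE2 DOX, and without HE1 DOX replicate 2 there was 1.

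From HE2 to HP, which differ by the loss of TIE2, no member passed in limma, of 9 tested either without DOX (0.00394% of 25354 genes) or with it (0% of 24416 genes). At an unadjusted p under 0.05 there was 1 member in each, Gp5 without DOX and Gp1bb with DOX. Gp5 was higher in HP than in HE2 by 1.98 ± 0.78 (adjusted p = 0.77) without DOX and was not well above background on 1 HE2 array. Nfe2 was higher by 0.90 ± 0.69 (95% interval -0.55 to 2.35) and Gp9 by 0.48 ± 0.70.

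From HE1 to HP, Nfe2 rose by 4.81 ± 0.69 (28.1-fold, adjusted p = 0.000348), Gp9 by 4.01 ± 0.70 (16.1-fold, adjusted p = 0.00201) and Treml1 by 3.75 ± 0.77 (13.4-fold, adjusted p = 0.007) without DOX. This was 3 of 9 tested, where 1.68% of 25054 genes rose and 2.59% fell, and Gp9, Treml1 and Gp5 entered through HP alone. Of the members above background in both groups 1 was called, Nfe2. With DOX the same members rose, by 4.60 ± 0.69, 3.75 ± 0.70 and 3.99 ± 0.77, and Gp5 rose by 3.29 ± 0.78 (adjusted p = 0.0243), 4 of 9 where 0.949% of 24868 genes rose and 2.1% fell. Since Gp5 was not well above background on either HE1 DOX array, its difference is a bound of at least 5.46-fold, taken against the lowest signal above background on those arrays or its own. Without DOX, Gp5 differed by 2.46 ± 0.78 (adjusted p = 0.0952), and the 2 differences share no arrays. With slide as a fixed block Gp5 passed without DOX (adjusted p = 0.0227) and Rab27b with it (adjusted p = 0.00904). With genes above background in both groups only, 3 of the 4 DOX calls remained, Gp5 not being tested. Without HE1 or HP replicate 1, 2 of the 3 untreated calls remained, and without HE1 DOX or HP DOX replicate 1, 1 of the 4 DOX calls remained.

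**Figure D2:**
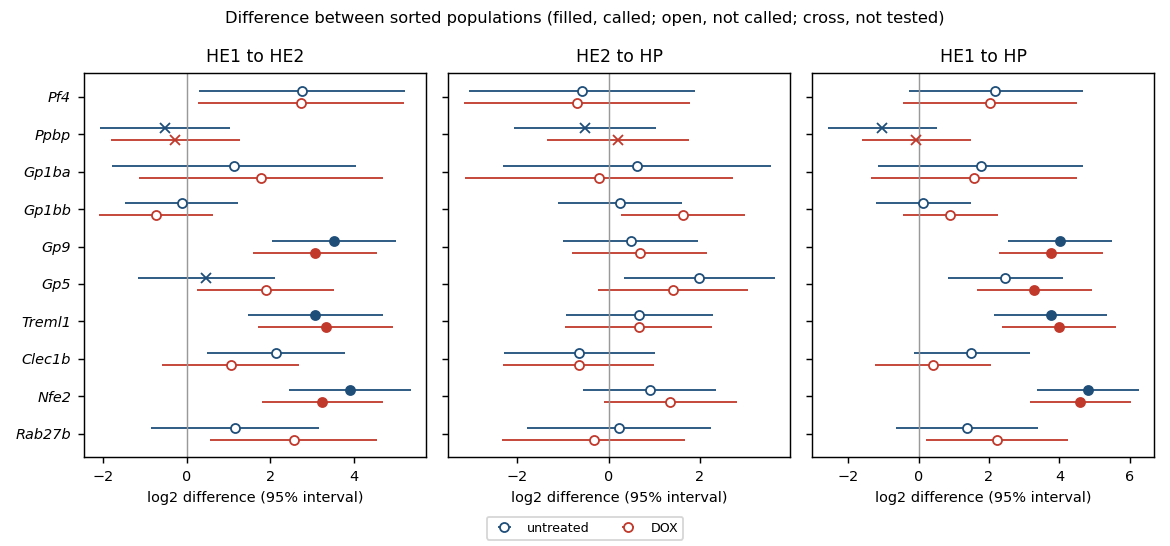
Difference in level (log2, horizontal axis, with its 95% interval) between sorted populations for each gene, untreated in blue and DOX in red. Filled points passed the test, open points did not and crosses were not tested. Gp9, Treml1 and Nfe2 are filled from HE1 to HE2 and from HE1 to HP in both colours, and nothing is filled from HE2 to HP.

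Before sorting, no member was called. From FLK1+ to FLK1+ 5h none of 4 tested was called in limma, where 2.69% of 22678 genes were, and 1 had an unadjusted p under 0.05, Rab27b at least 3.08-fold higher from a background signal in FLK1+ (adjusted p = 0.269). Gp1ba differed by -2.43 ± 1.39 (adjusted p = 0.434). From FLK1+ 5h to d1 BC none of 6 tested was called, where 1.39% of 23480 genes were, and none had an unadjusted p under 0.05. The differences of Gp1ba, Rab27b and Nfe2 there were 1.81 ± 1.39, 1.62 ± 0.96 and 1.06 ± 0.69. The first FLK1+ 5h array shared its slide with no other.

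Between DOX and untreated cells no member passed in limma with Benjamini-Hochberg adjustment in any of 6 populations. The number tested was 6 in each of FLK1+ 5h, d1 BC and SM, 8 for HE1, and 9 for both HE2 and HP. At an unadjusted p under 0.05 there was 1, Gp1bb in FLK1+ 5h. The share of all genes called was 0.00839% for SM, 0.0318% for HP and 0% for the other populations, so there were few calls of any gene. On simulated data for DOX in HP, 2% of changes of 1 (log2) were called. At an unadjusted p under 0.05 stood 2013 genes for HE2 and 269 for HE1, with 1247 for FLK1+ 5h and 363 for d1 BC.

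Pf4, Gp9 and Treml1 had both DOX arrays above both untreated arrays in HE1, HE2 and HP alike. Treml1 was higher with DOX by 1.28 ± 0.77 in HE1, 1.53 ± 0.77 in HE2 and 1.52 ± 0.77 in HP, with 95% intervals of -0.34 to 2.89, -0.08 to 3.15 and -0.09 to 3.13. The differences of Pf4 were 1.25 ± 1.18, 1.22 ± 1.18 and 1.10 ± 1.18. In HE1 that of Pf4 was 0.22 without untreated replicate 2 and 2.28 without untreated replicate 1, and in HP it was 0.48 without DOX replicate 1 and 1.73 without DOX replicate 2. Those of Gp9 were 1.19 ± 0.70, 0.72 ± 0.70 and 0.93 ± 0.70 in HE1, HE2 and HP. Within slides, Treml1 was higher by 1.39 and 1.17 in HE1, 0.96 and 2.11 in HE2, and 1.68 and 1.36 in HP, and Pf4 and Gp9 were likewise higher on both slides in each population. With normexp background correction the HE1 differences of Pf4, Gp9 and Treml1 were 0.39, 0.04 and 0.14. Without HE2 DOX replicate 2 the HE2 difference of Gp9 was 0.17, and those of Rab27b and Gp1ba were 0.50 and 0.65. The median over all genes was itself higher with DOX by 0.29 in HP, 0.11 in HE2 and 0.09 in HE1.

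Counted over the members tested, every DOX array was higher than every untreated array for 3 of 8 in HE1, 3 of 9 in HE2 and 5 of 9 in HP, where 9.02%, 18.8% and 28.1% of all genes were. Every DOX array was lower for 1 of 8, 2 of 9 and 2 of 9, where 8.17%, 15.5% and 11.8% of all genes were. Of 21719 genes tested in all 3 populations, 2.01% were higher without overlap in each and 0.529% lower. Pf4, Gp9 and Treml1 are among the former, but Gp9 and Treml1 entered the HE1 test through the DOX group alone, in which they were higher, so nothing is read from their number.

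Gp5 and Clec1b were lower with DOX in HP. The DOX difference of Gp5 was -0.81 ± 0.78 in HP and -0.23 ± 0.78 in HE2, and in HE1 it was not tested, being well above background on 1 of 4 arrays. That of Clec1b was -0.95 ± 0.78 in HE2, -0.97 ± 0.78 in HP and 0.13 ± 0.78 in HE1. Its other probes stood at 0.37 and -0.15 in HE2 and at -1.09 and -0.95 in HP, so the direction in HE2 rests on the probe, and at 0.70 and 0.58 in HE1. The HE2 difference of Gp5 turned positive with quantile scaling (0.39). Nfe2 differed by 0.75 ± 0.69, 0.09 ± 0.69 and 0.54 ± 0.69, its HE1 value being 0.03 without HE1 DOX replicate 2 and 1.47 without HE1 DOX replicate 1. In the same populations Gp1ba differed by 0.69 ± 1.39, 1.34 ± 1.39 and 0.51 ± 1.39, and Rab27b by -0.23 ± 0.96, 1.17 ± 0.96 and 0.63 ± 0.96 in HE1, HE2 and HP. Gp1bb differed by -0.41 ± 0.65, -1.02 ± 0.65 and 0.36 ± 0.65.

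**Figure D3:**
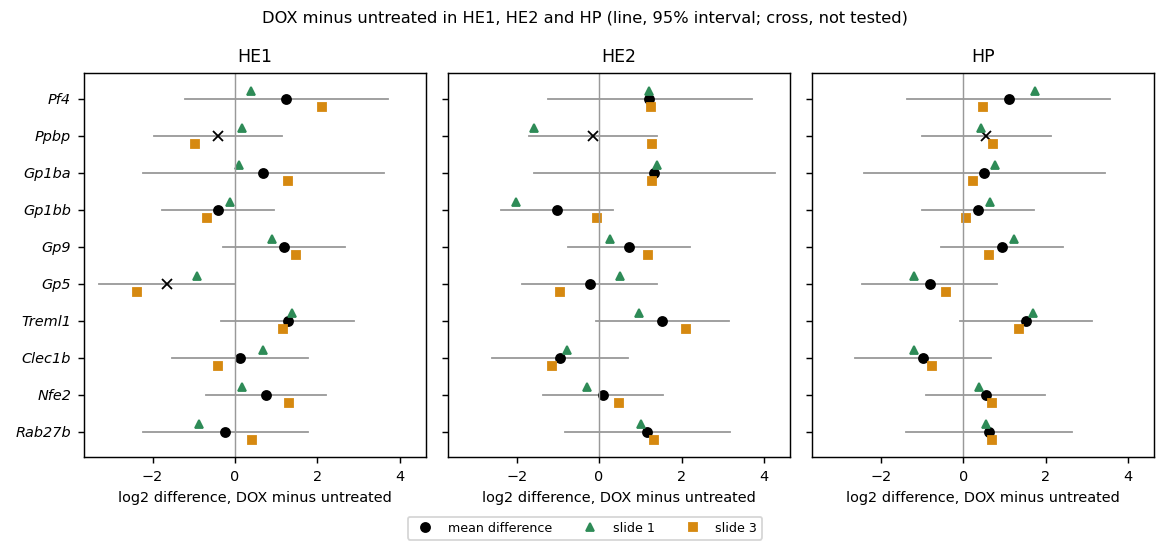
Difference between DOX and untreated arrays (log2, horizontal axis) for each gene in HE1, HE2 and HP. Black points are mean differences with their 95% interval, triangles the difference within slide 1, squares the difference within slide 3, and crosses untested genes. For Pf4, Gp9 and Treml1 all marks lie right of 0, and every one of their intervals includes 0.

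Averaged over HE1, HE2 and HP, the DOX difference of Treml1 was 1.44 ± 0.44 (95% interval 0.51 to 2.37, unadjusted p = 0.00438 and adjusted p = 0.345 in limma). That of Gp9 was 0.95 ± 0.41 (adjusted p = 0.542) and that of Pf4 1.19 ± 0.68 (adjusted p = 0.611). That of Clec1b was -0.60 ± 0.45 (adjusted p = 0.673) with the probe used and -0.01 and -0.17 with its other probes. That of Gp5 was -0.89 ± 0.45 (adjusted p = 0.578), but it takes in HE1 DOX arrays at background, so its size cannot be read. In HE1, Gp5 was well above background on 1 of 4 arrays, and Gp9 and Treml1 on 3 of 4. No member of 9 tested was called, where 0.146% of 26661 genes were, and this average was added after the data were seen. On the authors' own processed values Treml1 passed, at 1.35 ± 0.20 (adjusted p = 0.00377), and under the other alternatives its adjusted p ran from 0.0555 to 0.834. Without HE2 DOX replicate 2 the Treml1 average was 1.34, without HE1 DOX replicate 1 it was 1.52, and without HP DOX replicate 1 it was 1.37. The DOX differences did not differ between populations past the threshold for any member, of 9 tested in each of the 3 pairs, where 0% of 25213, 26115 and 26040 genes were called, and none had an unadjusted p under 0.05.

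Among 44 other genes of megakaryocytes and platelets, which include Itga2b of the gate, 11 rose and 1 fell of 43 tested from HE1 to HP without DOX, and 7 rose and 0 fell of 42 with DOX, where 1.68% of all genes rose and 2.59% fell without DOX and 0.949% and 2.1% with it. Of those tested, 7 without DOX and 5 with it entered through HP alone, among them F13a1 and Mmrn1 of the 12 called without DOX and none of the 7 called with it. The median difference of the list was 1.39 and 0.97, against 0.01 and 0.26 over all genes. The largest point estimates without DOX were those of F13a1, a clotting factor subunit, at least 113-fold from a background signal in HE1 (adjusted p = 3e-06), Plek, the platelet kinase C substrate pleckstrin, by 6.20 ± 0.66, and Mmrn1, an alpha granule protein that binds factor V, at least 50.1-fold. Since F13a1 and Mmrn1 give bounds, their order against measured genes such as Plek and Itgb3 cannot be read. Vwf, the ligand of the Gp1ba product and also an endothelial gene, fell by 3.53 on the log2 scale (from 2.69 to -0.84, SE 0.85, adjusted p = 0.0194). Itgb3, the partner of CD41 in the fibrinogen receptor, rose by 5.74 ± 0.82 without DOX and by 5.73 ± 0.82 with it, separate sets of arrays. From HE1 to HE2, 8 of 40 rose without DOX, F13a1 and Mmrn1 again through HE2 alone, and 6 of 41 with it, where 0.529% and 0.39% of all genes rose.

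Of 23 transcription factors of the lineage, all tested, 5 rose and 0 fell from HE1 to HP without DOX, and 5 rose and 1 fell with it, beside the same shares of all genes. All 23 were well above background on every array of these groups. The largest were Gata1, which partners FOG1 in megakaryocytes and red cells, at 6.33 ± 0.84 and 6.23 ± 0.84, Gfi1b, a repressor of both lineages, at 4.99 ± 0.79 and 4.42 ± 0.79, and Runx1, required for blood cells to emerge from hemogenic endothelium, at 4.59 ± 0.68 and 4.07 ± 0.68. Maff, a small MAF partner of NF-E2, fell by 2.75 on the log2 scale with DOX (SE 0.71, adjusted p = 0.0414). Runx1 and Gfi1b had risen already from HE1 to HE2, by 4.16 ± 0.68 and 4.26 ± 0.79 without DOX. No gene of either list was called in limma between DOX and untreated cells in any of the 6 populations, and at an unadjusted p under 0.05 there were 7 of 42 genes of the longer list in HP, where 867 of 25129 genes stood, 1 to 4 in each other population, and 1 of 23 transcription factors, in HE2, where 2013 of 24094 genes stood. Of the 42 genes of the longer list tested in HP, 8 were higher and 16 lower on every DOX array, where 28.1% and 11.8% of all genes were, and the median difference was -0.06 against 0.29 over all genes.

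**Figure D4:**
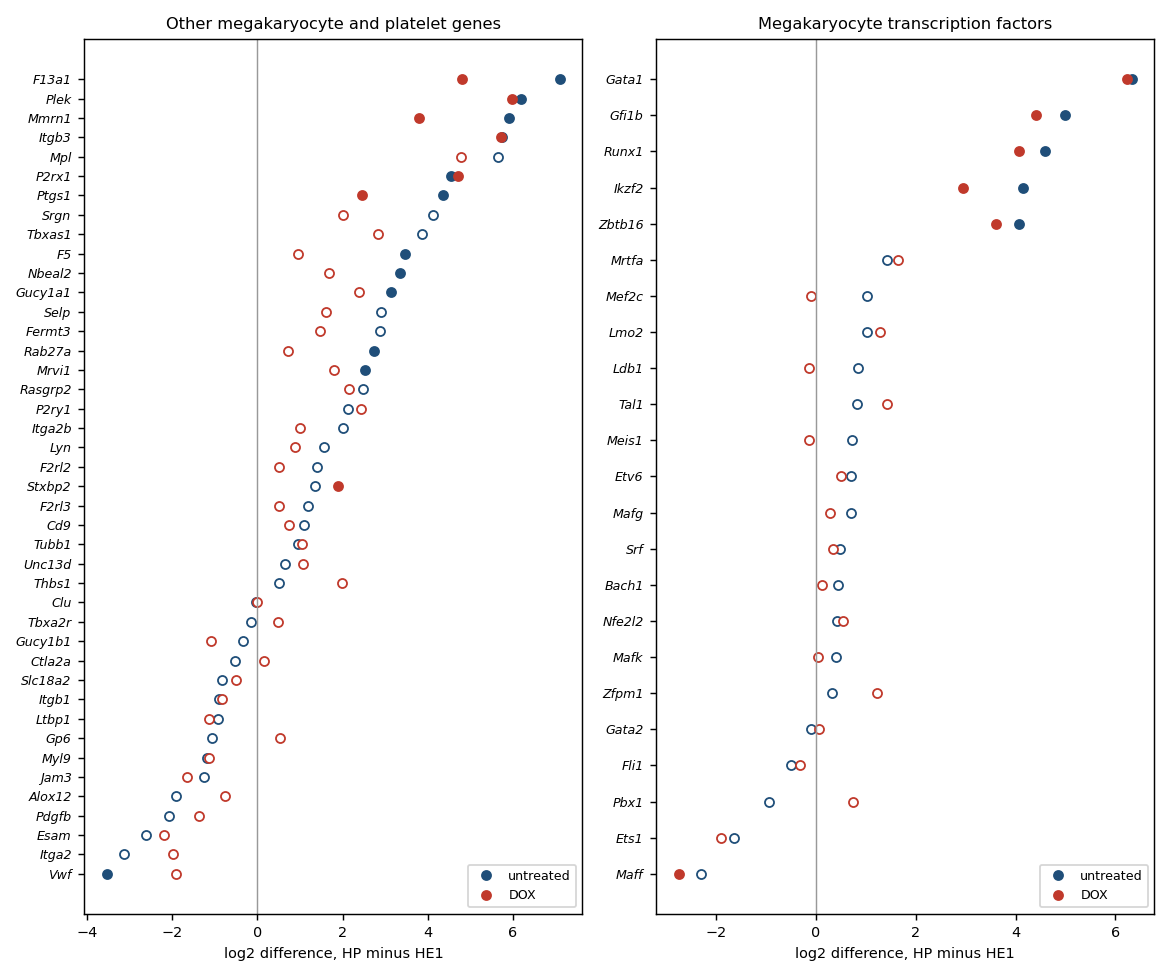
Difference in level from HE1 to HP (log2, horizontal axis) of the other megakaryocyte and platelet genes and of the lineage's transcription factors tested both without DOX (blue) and with it (red). Filled points passed the test. F13a1, Plek, Mmrn1 and Itgb3, and Gata1, Gfi1b and Runx1, lie farthest right, and Vwf and Maff farthest left.

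Markers of other cells moved over the same populations. From untreated HE1 to HP the summed signal of 17 erythroid markers, in multiples of the 75th percentile signal, went from 51.7 and 66.8 to 202 and 302, with 16 of 17 well above background on both HP arrays. That of 22 myeloid markers went from 112 and 181 to 203 and 237, with 21 of 22 above background, and that of 15 endothelial markers from 345 and 610 to 67.7 and 87.5. Mast cell and basophil markers stood at 1.48 and 1.70 in HE1 and 2.11 and 1.72 in HP, with 3 of 8 above background. The sum of 10 smooth muscle markers went from 556 and 255 in HE1 to 77.3 and 73.0 in HE2, where 2 of 8 tested were called lower, and was 57.7 and 246 in HP. Between untreated and DOX arrays of HE1 the endothelial sums were 345 and 610 against 374 and 828. The erythroid sums were 51.7 and 66.8 against 32.6 and 97.6, and the myeloid sums 112 and 181 against 122 and 120. Those of smooth muscle markers were 556 and 255 against 349 and 439, so each of these lists overlapped. The mast cell and basophil sums did not overlap in any of HE1, HE2 and HP. They were 1.48 and 1.70 against 1.28 and 1.35 in HE1, and 1.07 and 0.783 against 1.10 and 1.16 in HE2. In HP they were 2.11 and 1.72 against 3.24 and 2.37, and at most 3 of these 8 markers were above background in any of these groups. The endothelial sum was 167 and 207 without DOX against 256 and 406 with it in HE2, and 67.7 and 87.5 against 108 and 130 in HP. The erythroid sum was 120 and 141 against 85.1 and 149 in HE2, and 202 and 302 against 285 and 252 in HP, and the median DOX difference of the erythroid markers tested was 0.30 in HE2 (14 markers) and 0.60 in HP (16 markers, 13 of them positive). The myeloid sum was 243 and 121 against 109 and 173 in HE2, and 203 and 237 against 252 and 212 in HP, and the median DOX difference of the myeloid markers tested was -1.22 in HE2 (18 markers, 7 with an unadjusted p under 0.05) and -1.02 in HP (21 markers, 9 with one). No myeloid marker was called in limma in either. Their part in the results of the members was not tested.

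Over the 13 group means, the genes whose pattern was most like that of a member, by Pearson's r, were Arhgap25 (0.991), Mindy1 (0.989) and Tlr12 (0.986) for Pf4, and Mpo (0.992), Kansl1l (0.989) and Tnnt1 (0.988) for Gp9. For Nfe2 they were Dapp1 (0.992), Tmem229b (0.989) and Mpo (0.989), and Mpo, the myeloperoxidase of neutrophils, was thus near both. Those of Treml1 were Pcbd1 (0.973), Pramel39 (0.969) and Itgb3 (0.967). Clec1b was nearest to Il2rg (0.983), F2rl3 (0.983) and Rassf2 (0.981), of which F2rl3 encodes a platelet thrombin receptor. Gp1ba was nearest to Mvb12b (0.992), Atg7 (0.987) and Tmem179b (0.982), Rab27b to St3gal1 (0.987), Spns2 (0.981) and Abca7 (0.979), Gp5 to S100a5 (0.934), Adap1 (0.908) and Tbxas1 (0.903), the last being thromboxane synthase, and Gp1bb to Crxos (0.96), Hapln4 (0.948) and Pstpip2 (0.947). Among members, the nearest pair was Gp9 and Nfe2 (0.979), where Nfe2 stood at rank 7 of the genes like Gp9. All points of these correlations share arrays and scaling, so they describe likeness only.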

How the data were processed

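The 27 arrays were Agilent 8x60K mouse arrays with 1 colour (Cy3). Per the file headers the authors scanned and extracted them with Feature Extraction 10.7.3.1 (10.7.1.1 in the submitters' processing notes, which also name limma), which gave a processed intensity per spot after background subtraction, with flags for spots well above background, a column type treated here as other. The authors also deposited a table of processed log2 values for the same arrays, used as an alternative only. Its scale and centring were not stated, and each of its 27 columns was nearest to its own array.

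From the scanner files, log2 of the processed signal minus that of the 75th percentile over non-control spots was taken, outlier spots were removed and spots of a probe averaged. Of 55681 probes, 26576 got a symbol through a RefSeq accession. The probe with the highest mean stood for each of 37208 genes or transcripts. A gene was tested if 1 or more of the groups compared had the probe flagged as above background throughout. limma 3.58.1 in R 4.3.3 fitted 13 group means (14 residual and 4.27 prior degrees of freedom), with Benjamini-Hochberg adjustment over all genes tested. A call needs an adjusted p under 0.05 and at least 2-fold. Errors after ± are SE, intervals are 95%, and arrays on which a whole group was at background give a bound. Promoters were read from RefSeq (GRCm38.p6), with Python 3 scripts. Tested on simulated data for DOX in HP over 37208 genes, 2% of changes of 1, 10% of changes of 2 and 56% of changes of 4 (log2) were called.

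The members, lists and comparisons were chosen with earlier results of these data known. Genes named were the members, sorting markers, Hprt, at most 3 called genes of a list in each direction, and the 3 genes most like each member. Itgb3 was added after its values were seen. Alternatives were normexp background correction with offset 50, quantile and median scaling, the authors' values, other filters on dim probes, all probes of a gene, replicate or slide as a block, a variance trend, fits on the groups compared and leaving out each array. The number of arrays limits the precision.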

Additional observations from a re-analysis of the deposited data

Results flagged for a closer look

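In 2 of the members tested every DOX array moved one way in one population and the opposite way in another where no test of the difference was made. Gp1bb was higher with DOX on every array in FLK1+ 5h (1.56 on the log2 scale), lower in HE1 (-0.41) and lower in HE2 (-1.02). In FLK1+ 5h the untreated arrays stood at -5.89, on an array alone on its slide, and at -3.66, and the difference within slide 4 was 0.11. In HE1 its other probes differed by -0.63 and 0.17, and in HE2 the difference ran from -1.71 to -0.34 over the alternatives. Nfe2 was higher in HP (0.54) and lower in SM (-0.84). These differences between populations were not tested, none of the single differences passed in limma, and Gp1bb was not well above background on 1 of the untreated FLK1+ 5h arrays.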

How the results depend on the processing

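Of 1471 recomputed single-gene differences, 1344 kept direction and side of the threshold, 69 calls were lost, 23 were gained and 35 changed sign. No alternative called a member between DOX and untreated cells in a single population. Of the counts of members called, from SM to HP 4 remained with genes above background in all groups compared and 3 in the fit on those groups alone. From HE1 to HE2 untreated, normexp correction and the all-groups filter each left 1 and the fit on those groups alone 0. With DOX, no filter and the all-groups filter each left 1, and the fit on those groups alone 0, as from HE1 to HP. From HE1 to HP untreated there were 5 on the authors' values and 1 with the all-groups filter, and from HE2 to HP 1 on the authors' values. The average DOX difference had 1 on the authors' values. Leaving out 1 array gave 3 to 8 calls from SM to HP, 0 to 2 from HE1 to HE2 untreated, 0 to 1 with DOX, and 1 to 3 from HE1 to HP with DOX. The remaining array is then assumed to vary like the other groups.

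Same-numbered deviations correlated at 0.267 to 0.634 in 5 of 6 DOX comparisons. In FLK1+ 5h, where the replicate 1 arrays lay on slides 5 and 2, the value was -0.108. In HE1, HE2 and HP, where the number is also the slide, the values were 0.445, 0.267 and 0.632. No source says that a number marks a shared culture, so the main fits took no pairs. With the replicate block, calls from FLK1+ to FLK1+ 5h went to 1, from HE1 to HE2 to 2 untreated and 4 with DOX, and from HE1 to HP with DOX to 5. The block changed no other count of calls.

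Signs changed only in differences that were not called. For DOX in HE1 these were Rab27b with median scaling (0.03) and Clec1b with normexp (-0.07), and for DOX in HE2 Gp5 with quantile (0.39) or median scaling (0.28) and the authors' values (0.10) and Nfe2 with quantile scaling (-0.31) and the authors' values (-0.30). The Gp1bb difference became -0.32 from SM to HP with all probes, 0.09, 0.04 and 0.23 from HE1 to HE2 with quantile and median scaling and the authors' values, -0.08 and -0.46 from HE2 to HP and -0.43 and -0.58 from HE1 to HP with normexp and all probes. From HE2 to HP, Rab27b became -0.03 with quantile scaling and -0.04 on the authors' values, and Clec1b 0.14 with all probes. Leaving out 1 array gave, for DOX in HE1, -0.37 to 1.75 for Gp1ba, -1.28 to 0.81 for Rab27b and -1.04 to 1.29 for Clec1b, in HE2 -0.74 to 0.29 for Gp5 and -0.31 to 0.49 for Nfe2, and in HP -0.16 to 1.42 for Rab27b. It gave -0.81 to 0.57, -0.44 to 0.93 and -0.03 to 0.28 for Gp1bb from HE1 to HE2, HE2 to HP and HE1 to HP. From HE2 to HP it gave -0.13 to 1.38 for Gp1ba and -0.51 to 0.94 for Rab27b, and for Clec1b with DOX -0.11 to 2.22 from HE1 to HE2 and -0.76 to 1.57 from HE1 to HP. The cause was not tested. Signal near background limits Ppbp, Gp1bb and Gp5.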
